A study of Mus musculus with 9 samples.

Results

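Arginine is the amino acid from which cells make nitric oxide, ornithine and, through ornithine, the polyamines putrescine, spermidine and spermine. The 10 genes described here cover these steps: the arginases Arg1 and Arg2, the inducible nitric oxide synthase Nos2, the argininosuccinate synthase Ass1, the polyamine enzymes Odc1, Amd1, Srm, Sms and Sat1, and the antizyme Oaz1. They were chosen by name, as the rows of the expression table whose gene symbol equals one of these 10 symbols, out of 56691 genes listed, and each symbol matched 1 row. RNA was sequenced from RAW264.7 cells, a mouse macrophage-like line that can form osteoclasts in culture, in 9 libraries. The Ctrl group was left untreated, the RANKL group received RANKL, the cytokine that drives osteoclast formation, and the RANKL + UD group received RANKL together with uridine (UD), a pyrimidine nucleoside. Each group had 3 libraries, all from this 1 cell line and all taken after 3 days of culture, and the UD concentration used for them is not given in the sources used here. The labels call the libraries of a group biological replicates but do not say whether they came from separate cultures, so the p-values measure only the spread between these libraries.

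In macrophages, arginine is the shared substrate of nitric oxide synthase and arginase, and the balance between these enzymes is a classical mark of how the cell is activated. Ornithine decarboxylase (Odc1) and S-adenosylmethionine decarboxylase (Amd1) supply the substrates of polyamine synthesis, and spermidine synthase (Srm) and spermine synthase (Sms) then join them. Antizyme (Oaz1) binds ornithine decarboxylase and directs it to degradation, while spermidine/spermine acetyltransferase (Sat1) starts polyamine breakdown.

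Library totals ranged from 15951800 to 19746862 counts, with a median of 19182637. The summed level of 9 osteoclast markers (among them Acp5, Ctsk and Mmp9) was 46.92 to 50.06 FPKM in Ctrl, 2640.56 to 2843.84 in RANKL and 1666.21 to 1702.94 in RANKL + UD, and 4, 8 and 7 of them had a mean of at least 1 FPKM in these groups. The summed level of 8 macrophage markers (among them Csf1r, Cd14 and Lyz2) was 9986.52 to 10570.51, 2663.04 to 2896.88 and 2366.55 to 2500.69 FPKM in the same order, and all 8 had a mean of at least 1 FPKM in every group. Most of that sum was Lyz2 (mean 8000 FPKM in Ctrl), and the markers did not all follow it: Cd68 was called higher in RANKL than in Ctrl (549 and 782 FPKM), and Adgre1 and Cybb were called higher in RANKL + UD than in RANKL (edgeR's quasi-likelihood test). No fibroblast or osteoblast, epithelial or lymphocyte marker out of 13 looked at had a mean of 1 FPKM in any group. These marker levels moved with the groups compared below, and their part in the results was not tested. In bulk RNA, fewer cells of a type and less RNA per cell cannot be told apart.

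By FPKM, which divides a gene's counts by its exonic length and the library total and so allows levels of different genes to be compared, the members fell into 3 ranges. Sat1 (mean over the 9 libraries, 74.8 FPKM), Oaz1 (55.4), Odc1 (47.4), Sms (34.4), Amd1 (29.6) and Srm (26.2) were the abundant ones. Ass1 (3.34 FPKM), Arg2 (1.67) and Nos2 (1.29) were low, and Arg1 (0.112) was near the limit of detection in every library. The lowest Sat1 library, at 63.36 FPKM, was above the highest Oaz1 library, at 60.09. The remaining neighbours in this order had overlapping ranges over the 9 libraries, apart from Odc1 with Sms, Srm with Ass1 and Nos2 with Arg1. The polyamine enzymes were all more abundant as transcripts than the arginine-handling enzymes in every library.

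**Figure D1:**
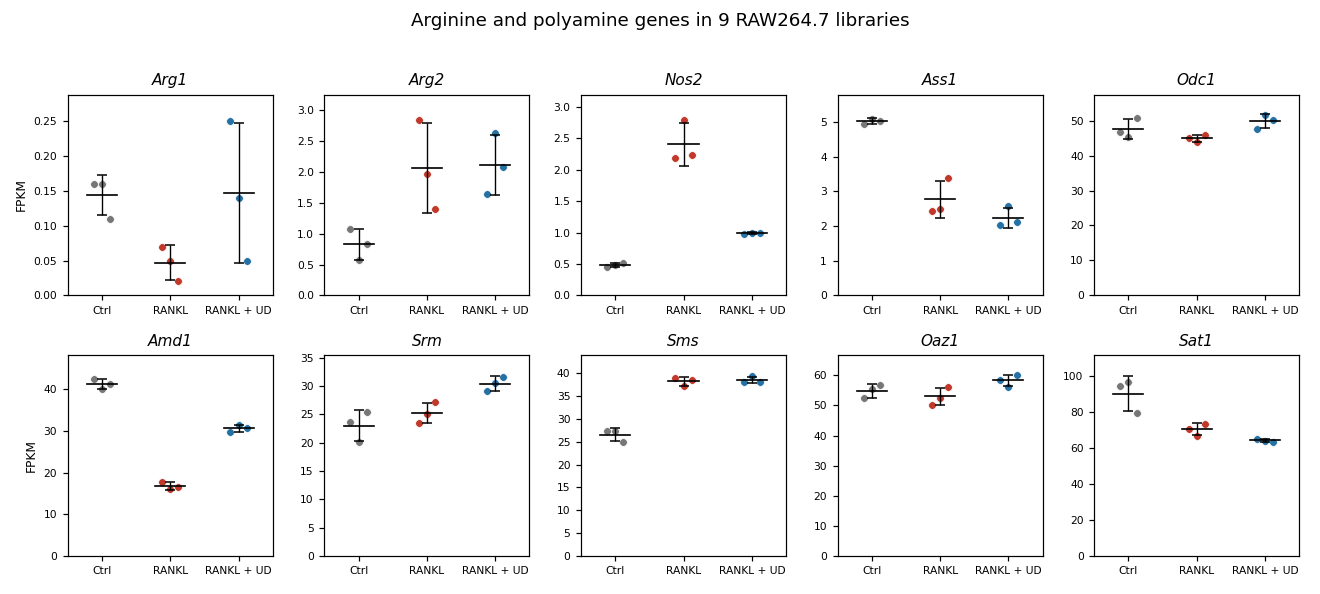
Each panel plots 1 member's FPKM (y axis, linear from 0, with its own scale) in the 3 groups (x axis); points are libraries, the horizontal line is the mean and the bar is the SD over 3 libraries. Nos2 and Amd1 are the members whose 3 groups are all apart with RANKL at one extreme: Nos2 is highest in RANKL (2.19 to 2.79 FPKM) and Amd1 is lowest there (16.13 to 17.81 FPKM).

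Changes were tested on the counts with edgeR's quasi-likelihood test over 11995 genes with at least 1 FPKM in at least 3 libraries, and a gene was called where the Benjamini-Hochberg adjusted p was under 0.05. Of the 10 members, 9 were tested and Arg1 was too low. Nos2 passed this filter through the RANKL libraries, where it was highest, and Arg2 through the libraries of both groups with RANKL, where it was higher than in Ctrl. Without the filter Nos2 was called in the same directions, with a log2 fold change of 2.41 between RANKL and Ctrl and -1.36 between RANKL + UD and RANKL. Arg2 was also called higher without it, at 1.43 between RANKL and Ctrl and 1.37 between RANKL + UD and Ctrl. Between RANKL and Ctrl, 7 of 9 tested members were called, with 4 higher (Arg2, Nos2, Srm, Sms) and 3 lower (Ass1, Amd1, Sat1). In the same comparison 57.6% of all tested genes were called, 27.3% higher and 30.2% lower. Between RANKL + UD and RANKL, 3 of 9 were called, with Amd1 higher and Nos2 and Sat1 lower, against 38.8% of all tested genes (18.6% higher and 20.2% lower). For RANKL + UD against Ctrl, 7 of 9 were called, the same 4 higher and the same 3 lower as for RANKL against Ctrl, and the background was 54% (26.7% higher and 27.3% lower). With 9 genes these counts were not tested against the background, and nothing is read from the difference. In the RANKL + UD against RANKL comparison the split moved with the scaling, to 4 members higher and 1 lower with library totals alone. The median log2 fold change of the tested members was 0.04, -0.07 and 0.09 in these 3 comparisons, and that of all tested genes was -0.03, 0.005 and -0.002. The libraries of both groups did not overlap in FPKM for 6 tested members between RANKL and Ctrl, 6 between RANKL + UD and RANKL and 7 between RANKL + UD and Ctrl. Among all tested genes this held for 61.7%, 51.7% and 59.9%. The comparisons share groups of libraries, so their values are set side by side here and are not independent of each other.

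**Figure D2:**
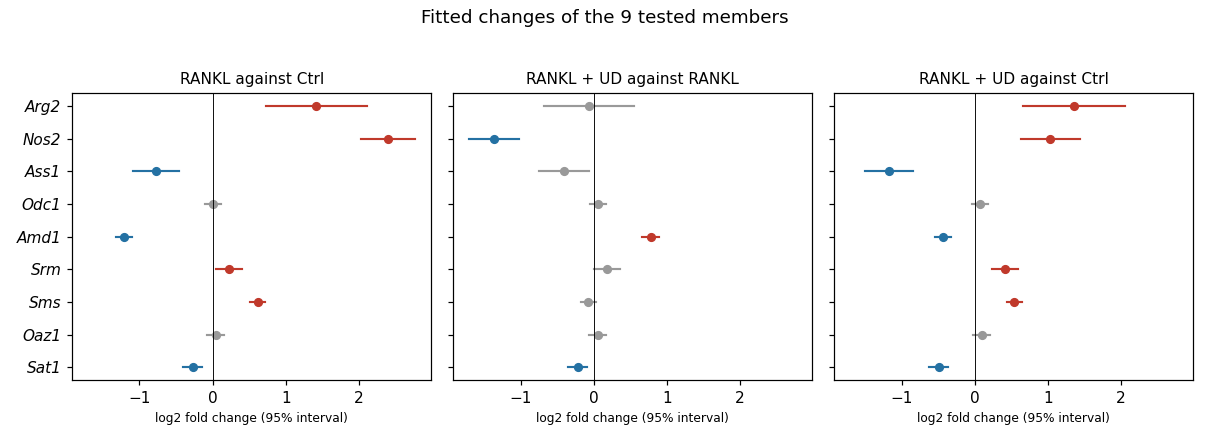
The panels show the fitted log2 fold change (x axis, log2 scale) with its 95% interval for each of the 9 tested members (rows) in the 3 comparisons. Red marks a member called higher, blue one called lower and grey one that was not called; Odc1 and Oaz1 lie beside 0 in all 3 panels, and the widest of their intervals ends at 0.20.

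At the arginine end of the pathway, Nos2 and Arg2 were higher with RANKL than without it, while Ass1 was lower. Nos2 alone of these genes was called between RANKL + UD and RANKL. All of them were minor transcripts, so their values rest on few reads compared with the polyamine enzymes.

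Nos2, the enzyme that makes nitric oxide from arginine in activated macrophages, read 0.45, 0.48 and 0.52 FPKM in the Ctrl libraries. With RANKL it read 2.19, 2.79 and 2.23 FPKM, and with RANKL + UD 0.97, 0.99 and 1.00. The 3 groups did not overlap, with Ctrl lowest, RANKL + UD between and RANKL highest. The group means were 0.483 ± 0.0351, 2.40 ± 0.336 and 0.987 ± 0.0153 FPKM (SD, n = 3 each). Nos2 rose 5.25-fold between Ctrl and RANKL (log2 fold change 2.39, SE 0.178, adjusted p = 2.09e-10, edgeR's quasi-likelihood test). With UD added it was 0.389 times its RANKL level (log2 fold change -1.36, SE 0.161, adjusted p = 9.34e-07), which left it 2.04-fold above Ctrl (1.03, SE 0.194, adjusted p = 0.000124). The gene lies on the plus strand of chromosome 11 (ENSMUSG00000020826, 78811613 to 78851080). These and the coordinates below are as the table lists them. The submitters' processing notes name mm10, but none of the 10 members has the same start and end there, so the build of these positions is not settled.

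Arg2, the mitochondrial arginase (ENSMUSG00000021125, chromosome 12, plus strand, 79177551 to 79203075), read 1.08, 0.57 and 0.83 FPKM in Ctrl. It read 2.84, 1.96 and 1.39 FPKM in RANKL, and 1.64, 2.62 and 2.07 in RANKL + UD. Every library with RANKL was above every Ctrl library, and the RANKL and RANKL + UD libraries overlapped. Arg2 rose with RANKL (2.67-fold, log2 fold change 1.42, SE 0.332, adjusted p = 0.000995, edgeR) and was also above Ctrl with UD added (2.55-fold, 1.35, SE 0.334, adjusted p = 0.00176). For RANKL + UD against RANKL the log2 difference was -0.07 with a 95% interval from -0.68 to 0.54 (adjusted p = 0.889, edgeR). Changes within this interval, in either direction, were therefore not excluded. By the listed starts and ends, the gene overlaps 2 genes of the opposite strand, Vti1b (mean 73.0 FPKM) over 285 bases and Gm48780 (mean 1.05 FPKM, near the level of Arg2 itself) over 997 bases. The libraries were prepared strand-specifically, but whether the counting used strand is not given in the sources used here, so reads of these genes in the shared bases cannot be told apart from reads of Arg2.

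Arg1, the cytosolic arginase and a marker of alternatively activated macrophages (ENSMUSG00000019987, chromosome 10, minus strand, 24791119 to 24803382), gave 6, 7 and 4 counts in the Ctrl libraries. It gave 3, 2 and 1 counts in RANKL and 11, 5 and 2 in RANKL + UD. The RANKL libraries were below the Ctrl libraries and overlapped those with UD, which ran from below the lowest to above the highest Ctrl library. Summed over each group and scaled to the library totals, the counts were 3.14 times as high in Ctrl as in RANKL (exact 95% interval 1.18 to 9.72) and 3.28 times as high in RANKL + UD as in RANKL (1.25 to 10.1). These intervals cover counting error only. With the filter on low values removed, the adjusted p for Arg1 was 0.305 between RANKL and Ctrl and 0.361 between RANKL + UD and RANKL (edgeR), so no difference in Arg1 was called at this depth.

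Ass1, which joins citrulline and aspartate on the way back to arginine (ENSMUSG00000076441, chromosome 2, plus strand, 31360219 to 31410684), read 4.94, 5.10 and 5.04 FPKM in Ctrl. The RANKL libraries read 2.44, 2.49 and 3.39 FPKM and the RANKL + UD libraries 2.02, 2.57 and 2.11. Every Ctrl library was above every library with RANKL, and RANKL and RANKL + UD overlapped in 1 library of RANKL + UD. Ass1 fell by 0.77 on the log2 scale between Ctrl and RANKL (SE 0.152, adjusted p = 0.000183, edgeR) and by 1.17 between Ctrl and RANKL + UD (SE 0.158, adjusted p = 1.91e-06). Between RANKL + UD and RANKL the log2 fold change was -0.40 (SE 0.164), with an adjusted p of 0.0585 by edgeR. This call turned on single libraries: the adjusted p was 0.0409 without RANKL replicate 1 and 0.0406 without RANKL + UD replicate 2.

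The abundant members were those that make and break down polyamines, and they did not move as a block. Amd1 had the largest log2 fold change per SE of the tested members between RANKL and each of the other groups, while Odc1 and its antizyme Oaz1 were not called in any comparison. The synthases Srm and Sms were higher in the RANKL + UD group than in Ctrl, and Sat1 was lower.

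Amd1 makes decarboxylated S-adenosylmethionine, the aminopropyl donor for both spermidine and spermine (ENSMUSG00000075232, chromosome 10, minus strand, 40163454 to 40178184). It read 42.57, 40.11 and 41.39 FPKM in Ctrl, 17.81, 16.13 and 16.47 in RANKL, and 29.83, 31.41 and 30.66 in RANKL + UD. The groups were far apart compared with their spread, with RANKL lowest and RANKL + UD between RANKL and Ctrl. The means were 41.4 ± 1.23, 16.8 ± 0.888 and 30.6 ± 0.790 FPKM (SD, n = 3 each). Amd1 fell to 0.432 times its Ctrl level with RANKL (log2 fold change -1.21, SE 0.055, adjusted p = 5.19e-14, edgeR). With UD added it was 1.72-fold above RANKL (0.78, SE 0.0554, adjusted p = 8.56e-10) and still 0.741 times its Ctrl level (-0.43, SE 0.0532, adjusted p = 5.76e-07). Over all alternative settings the log2 fold change ran from -1.30 to -1.18 between RANKL and Ctrl and from 0.75 to 0.87 between RANKL + UD and RANKL.

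Amd1 has close copies in the mouse genome, and the reads of one can be counted for another. Amd2, an intronless copy (ENSMUSG00000063953, chromosome 10, minus strand, 35584671 to 35587888 in the table), is 99.6% identical to the Amd1 transcript, and 61.6% of its stretches of 150 bases, the read length, occur unchanged in Amd1. Counting all 6 copies with a transcript in the GENCODE annotation, 66.8% of such stretches of the Amd1 transcript also occur in a copy. The following 90 bases of the reading frame, bases 707 to 796 from the start codon on the GRCm38 transcripts, are shown because they hold 1 difference, marked by the capital letter.
Amd1: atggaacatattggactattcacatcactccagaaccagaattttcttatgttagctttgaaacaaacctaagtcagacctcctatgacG
Amd2: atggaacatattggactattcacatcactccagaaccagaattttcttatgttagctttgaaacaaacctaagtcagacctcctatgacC

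Amd2 itself read 2.27 to 2.77 FPKM in Ctrl, 0.87 to 1.17 in RANKL and 0.99 to 1.62 in RANKL + UD. Its level per Amd1 was 0.0599 ± 0.0046 in Ctrl, 0.0625 ± 0.0123 in RANKL and 0.0427 ± 0.0107 in RANKL + UD (SD, n = 3 each). Amd2 fell between Ctrl and RANKL by 1.16 on the log2 scale (SE 0.197, adjusted p = 3.52e-05, edgeR). Between RANKL + UD and RANKL, where Amd1 was called higher, Amd2 was not called (0.25, SE 0.209, adjusted p = 0.386, edgeR). With the counts of Amd1 and all its listed copies summed, the log2 fold change of Amd1 was -1.20 between RANKL and Ctrl and 0.75 between RANKL + UD and RANKL. These are close to the values of Amd1 alone, which holds most of the summed counts.

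**Figure D3:**
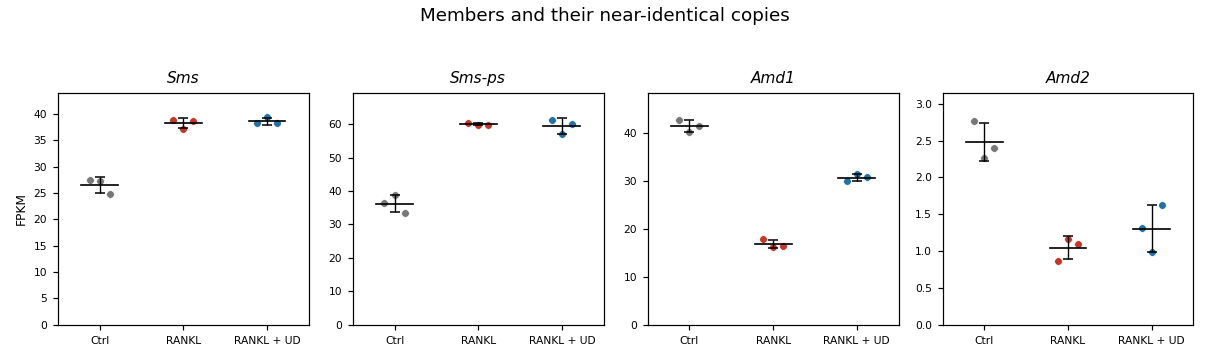
Each panel plots FPKM (y axis, linear from 0, with its own scale) of a member or of a copy of it in the 3 groups (x axis); points are libraries, lines are means and bars are the SD over 3 libraries. Sms-ps, a copy with no base of its own, is listed at 33.54 to 61.27 FPKM and Amd2 at 0.87 to 2.77 FPKM.

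Odc1 makes putrescine from ornithine and is the classical rate-limiting step of the pathway (ENSMUSG00000011179, chromosome 12, plus strand, 17594795 to 17601506). It read 46.71, 45.35 and 50.70 FPKM in Ctrl, 45.01, 43.82 and 45.93 in RANKL, and 47.63, 51.57 and 50.24 in RANKL + UD. The Ctrl libraries overlapped both other groups, and every RANKL + UD library was above every RANKL library. The log2 fold change was 0.005 between RANKL and Ctrl (95% interval -0.10 to 0.11, adjusted p = 0.943, edgeR) and 0.06 between RANKL + UD and RANKL (-0.05 to 0.17, adjusted p = 0.375). The second of these depended on the scaling: with library totals alone, the scaling that FPKM uses, it was 0.15 with an adjusted p of 0.0271 by edgeR.

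Oaz1, the antizyme that marks ornithine decarboxylase for degradation (ENSMUSG00000035242, chromosome 10, plus strand, 80662490 to 80665124), read 52.34, 55.33 and 56.71 FPKM in Ctrl. It read 50.29, 52.61 and 56.15 FPKM in RANKL and 58.59, 56.30 and 60.09 in RANKL + UD. Ctrl overlapped both other groups, and RANKL + UD was above RANKL in every library, the closest pair being 56.30 and 56.15 FPKM. Its log2 fold change was 0.04 between RANKL and Ctrl (95% interval -0.07 to 0.15, adjusted p = 0.547, edgeR) and 0.05 between RANKL + UD and RANKL (-0.06 to 0.16, adjusted p = 0.48), and the latter was 0.14 with an adjusted p of 0.0432 when library totals alone were used. Odc1 per Oaz1, a ratio of FPKM within each library, was 0.869 ± 0.0422 in Ctrl, 0.849 ± 0.0408 in RANKL and 0.855 ± 0.0541 in RANKL + UD (SD, n = 3 each), and the groups overlapped. Amd1 per Odc1 moved instead, at 0.870 ± 0.049, 0.374 ± 0.0193 and 0.615 ± 0.0095 (SD, n = 3 each), with no overlap between groups. Antizyme acts on the protein and is itself controlled by frameshifting during translation, so these RNA levels do not measure ornithine decarboxylase activity.

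Srm, which makes spermidine from putrescine (ENSMUSG00000006442, chromosome 4, plus strand, 148675960 to 148679450), read 23.61, 20.05 and 25.33 FPKM in Ctrl. It read 23.52, 25.01 and 27.16 FPKM in RANKL and 29.05, 30.48 and 31.65 in RANKL + UD. RANKL overlapped Ctrl, and every RANKL + UD library was above every library of both other groups. Srm rose between Ctrl and RANKL + UD by 0.41 on the log2 scale (1.33-fold, SE 0.0857, adjusted p = 0.000408, edgeR). The rise between Ctrl and RANKL was smaller (0.22, SE 0.0861, adjusted p = 0.0312, edgeR) and was not called with library totals alone (0.14, adjusted p = 0.182) or without Ctrl replicate 2 (0.13, adjusted p = 0.22), RANKL replicate 2 (0.23, adjusted p = 0.058) or RANKL replicate 3 (0.17, adjusted p = 0.142). Between RANKL + UD and RANKL the log2 fold change was 0.18 (95% interval 0.006 to 0.36, adjusted p = 0.096, edgeR), and it was called with library totals alone (0.27, adjusted p = 0.014).

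Sms, which makes spermine from spermidine (ENSMUSG00000071708, chromosome X, minus strand, 156226851 to 156275283), read 27.42, 27.24 and 24.86 FPKM in Ctrl. It read 38.88, 37.17 and 38.55 FPKM in RANKL and 38.18, 39.30 and 38.17 in RANKL + UD. Both groups with RANKL were above Ctrl in every library and overlapped each other. Sms rose 1.53-fold with RANKL (log2 fold change 0.61, SE 0.0494, adjusted p = 7.67e-10, edgeR) and was 1.45-fold above Ctrl with UD added (0.54, SE 0.0495, adjusted p = 6.72e-09). UD added to RANKL gave a log2 difference of -0.07, with a 95% interval of -0.17 to 0.03 (adjusted p = 0.256, edgeR). Sms per Srm was 1.17 ± 0.190 in Ctrl, 1.52 ± 0.118 in RANKL and 1.27 ± 0.0529 in RANKL + UD (SD, n = 3 each), and only RANKL was clear of the other two groups, at 1.42 or more against at most 1.36.

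The pseudogene Sms-ps (ENSMUSG00000081752, chromosome X, minus strand, 61819191 to 61820291) is listed at a higher FPKM than Sms itself. Its counts were lower in every library (589 to 1326 against 2383 to 4605), but FPKM divides them by 1101 bases and those of Sms by 6010. Its transcript of 1101 bases is 100% identical to Sms, and all 952 of its stretches of 150 bases occur in Sms, so no read within it can tell the 2 genes apart. The first 90 bases of the reading frame, from the start codon on the GRCm38 transcripts, are shown for both because they are the same letter for letter.
Sms: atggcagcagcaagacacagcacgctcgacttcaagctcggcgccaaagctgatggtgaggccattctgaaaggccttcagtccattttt
Sms-ps: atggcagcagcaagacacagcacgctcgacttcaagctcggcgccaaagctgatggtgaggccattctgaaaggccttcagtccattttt

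Sms-ps read 36.29, 38.68 and 33.54 FPKM in Ctrl, 60.33, 59.68 and 59.85 in RANKL, and 61.27, 56.91 and 60.16 in RANKL + UD. As for Sms, Ctrl was lowest and both groups with RANKL overlapped. The FPKM of Sms-ps per Sms was not constant, at 1.32 to 1.42 in Ctrl, 1.55 to 1.61 in RANKL and 1.45 to 1.60 in RANKL + UD. The log2 fold change of Sms-ps was 0.81 between RANKL and Ctrl (SE 0.0662, adjusted p = 8.98e-10, edgeR) and -0.10 between RANKL + UD and RANKL (adjusted p = 0.246). With the counts of Sms and Sms-ps summed, the log2 fold change of Sms was 0.66 between RANKL and Ctrl and -0.08 between RANKL + UD and RANKL. The split of reads between these genes is therefore uncertain, and the calls of Sms were the same either way. Oaz1 has a similar copy, Oaz1-ps, in which 72.9% of the stretches of 150 bases occur unchanged in Oaz1, but it was listed at no more than 1.92 FPKM.

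Sat1, the acetyltransferase that starts the back-conversion and export of polyamines (ENSMUSG00000025283, chromosome X, minus strand, 153996128 to 153999445), was the most abundant member. It read 94.51, 96.74 and 79.28 FPKM in Ctrl, 70.58, 66.72 and 73.33 in RANKL, and 64.88, 64.00 and 63.36 in RANKL + UD. The 3 groups did not overlap, with Ctrl highest and RANKL + UD lowest. Sat1 fell between Ctrl and RANKL by 0.27 on the log2 scale (SE 0.0619, adjusted p = 0.000706, edgeR) and between Ctrl and RANKL + UD by 0.49 (SE 0.0623, adjusted p = 8.4e-07). With UD added Sat1 fell to 0.860 times its RANKL level (log2 fold change -0.22, SE 0.0624, adjusted p = 0.00849, edgeR), and with library totals alone it was not called (-0.13, adjusted p = 0.0967).

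Promoter sequence, taken as the 250 bases before the start of each gene in RefSeq on GRCm38.p6, was at hand for 6 of the 10 members (Ass1, Odc1, Amd1, Sms, Oaz1 and Sat1) and 7 starts, since Sms has 2. Arg1, Arg2, Nos2 and Srm were not matched. The windows were searched for the E-box CACGTG, which reads the same on both strands and is bound by MYC and related factors, and for TATAA on the strand of the gene, the core of the TATA box. The E-box was found in 2 of the 7 windows, those of Ass1 and of 1 start of Sms, against 6.02% of 32851 promoters in RefSeq. In Ass1 its first base lies 36 bases before the start and in Sms 196. TATAA was found in Amd1 alone among the members, 27 bases before the start, against 16% of all promoters. The windows of Amd1 and Ass1, which fell with RANKL, and of Sms, which rose, are shown with these letters in capitals. A match describes the letters only, and no binding was measured.
Amd1, chr10:40302189-40302438, minus strand: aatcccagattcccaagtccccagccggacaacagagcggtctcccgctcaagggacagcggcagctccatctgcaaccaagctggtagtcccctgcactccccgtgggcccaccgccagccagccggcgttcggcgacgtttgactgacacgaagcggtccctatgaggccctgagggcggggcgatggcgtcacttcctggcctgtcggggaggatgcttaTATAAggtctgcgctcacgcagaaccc
Ass1, chr2:31470020-31470269, plus strand: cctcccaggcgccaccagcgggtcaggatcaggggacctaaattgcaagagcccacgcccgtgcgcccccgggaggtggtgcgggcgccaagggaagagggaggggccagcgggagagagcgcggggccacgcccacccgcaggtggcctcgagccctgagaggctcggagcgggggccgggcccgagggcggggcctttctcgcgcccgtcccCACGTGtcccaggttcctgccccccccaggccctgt
Sms, chrX:157492288-157492537, minus strand: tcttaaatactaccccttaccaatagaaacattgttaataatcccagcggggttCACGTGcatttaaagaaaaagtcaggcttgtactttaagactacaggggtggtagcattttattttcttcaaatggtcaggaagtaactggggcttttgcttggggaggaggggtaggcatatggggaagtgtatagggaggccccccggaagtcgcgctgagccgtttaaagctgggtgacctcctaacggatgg

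Around the members, 42 other genes of arginine transport and use, proline, methionine and polyamine metabolism were looked at, of which 27 passed the filter on low values. Between RANKL and Ctrl 17 of 27 were called, 7 higher and 10 lower. Of all tested genes 57.6% were called there, 27.3% higher and 30.2% lower. For RANKL + UD against RANKL 14 were called, 7 in each direction, beside 38.8% of all tested genes (18.6% higher and 20.2% lower). Between RANKL + UD and Ctrl 16 were called, 5 higher and 11 lower, beside 54% (26.7% higher and 27.3% lower). These were not tested against the background either. Their median log2 fold change was 0.02, -0.19 and -0.31 in these comparisons, beside -0.03, 0.005 and -0.002 for all tested genes. Otc and Nags, urea cycle genes expressed mainly in liver and intestine, were at 0 counts in every library.

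The arginine carrier genes Slc7a1 and Slc3a2 were called higher between RANKL and Ctrl and lower between RANKL + UD and RANKL, as was Nos2, while Gch1, needed to make the cofactor of Nos2, was called lower in both. Slc7a1, the main carrier of arginine into most cells, read 24.25 to 24.65 FPKM in Ctrl, 26.25 to 28.15 in RANKL and 19.23 to 20.42 in RANKL + UD, 3 groups without overlap. Slc3a2, the heavy chain shared by several amino acid carriers, rose by 0.50 on the log2 scale between Ctrl and RANKL (SE 0.0546, adjusted p = 1.04e-07, edgeR) and fell by 0.95 between RANKL and RANKL + UD (SE 0.0555, adjusted p = 5.2e-11). Slc7a7, the third transport gene tested, was instead lower in RANKL than in Ctrl, at -0.48 (adjusted p = 0.00662, edgeR), and was not called between RANKL + UD and RANKL (-0.35, adjusted p = 0.0697). All 3 were called lower between RANKL + UD and Ctrl, as were 27.3% of all tested genes. Gch1, the first enzyme of tetrahydrobiopterin synthesis, read 6.06 to 6.82 FPKM in Ctrl, 2.34 to 2.79 in RANKL and 1.45 to 1.73 in RANKL + UD. Gch1 fell between Ctrl and RANKL by 1.23 on the log2 scale (SE 0.0973, adjusted p = 5.87e-10, edgeR), where Nos2 rose, and fell again by 0.76 between RANKL and RANKL + UD (SE 0.108, adjusted p = 1.05e-05). Pts, the next enzyme of that pathway, also fell between Ctrl and RANKL, by 0.37 (adjusted p = 0.000232, edgeR), but rose by 0.45 between RANKL and RANKL + UD (adjusted p = 5.22e-05). Spr, the last enzyme, was called higher in both of these comparisons and was 0.67 above Ctrl with RANKL + UD (adjusted p = 9.89e-05, edgeR).

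Of the other routes out of arginine and ornithine, Gatm, which uses arginine to make the creatine precursor, fell by 1.36 on the log2 scale between Ctrl and RANKL (SE 0.0606, adjusted p = 3.69e-14, edgeR) and rose by 0.55 between RANKL and RANKL + UD (SE 0.0616, adjusted p = 4.37e-07). Its means were 49.1 ± 2.57, 18.0 ± 1.07 and 28.0 ± 1.51 FPKM (SD, n = 3 each), an order of groups like that of Amd1. Pycr1 is the mitochondrial enzyme of the last step of proline synthesis. It read 1.89 to 2.17 FPKM in Ctrl, 1.89 to 2.05 in RANKL and 0.65 to 0.91 in RANKL + UD. Pycr1 passed the filter on low values only through the Ctrl and RANKL libraries, where it was higher. Between RANKL and RANKL + UD it fell by 1.45 on the log2 scale (SE 0.172, adjusted p = 9.73e-07, edgeR). The RANKL + UD libraries held 42 to 62 counts of it each. Asl, which follows Ass1 in arginine synthesis, rose by 0.38 between Ctrl and RANKL (SE 0.102, adjusted p = 0.003, edgeR), where Ass1 fell.

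Upstream of Amd1, Mat2a, which makes S-adenosylmethionine, read 63.47 to 68.25 FPKM in Ctrl and 62.56 to 64.42 in RANKL. With RANKL + UD it read 98.83 to 100.64 FPKM, above every other library. Mat2a rose by 0.57 on the log2 scale between RANKL and RANKL + UD (SE 0.045, adjusted p = 3.2e-09, edgeR), and between RANKL and Ctrl its log2 fold change was 0.02 (adjusted p = 0.686). Amd1 per Mat2a was 0.627 ± 0.034 in Ctrl, 0.266 ± 0.0093 in RANKL and 0.307 ± 0.0095 in RANKL + UD (SD, n = 3 each), and no groups overlapped. Of 5 tested genes of polyamine oxidation, acetylation and transport, 3 were lower in RANKL than in Ctrl, namely Smox, Paox and Atp13a3, and 0 were higher, beside 30.2% of all tested genes lower and 27.3% higher. The log2 fold changes were -0.57 for Smox, -0.67 for Paox and only -0.16 for Atp13a3 (adjusted p = 0.0319, edgeR). Atp13a3 read 29.19, 28.56 and 23.54 FPKM in RANKL, against 31.48 to 32.63 in Ctrl. Between RANKL + UD and RANKL 1 of the 5 was higher (Atp13a3) and 1 lower (Smox), beside 18.6% of all tested genes higher and 20.2% lower. Neither the antizyme gene Oaz2 nor the antizyme inhibitor gene Azin1 was called in any of the 3 comparisons, as for Odc1 and Oaz1. Dhps, which uses spermidine to modify the translation factor encoded by Eif5a, rose by 0.91 between Ctrl and RANKL (SE 0.125, adjusted p = 2.44e-06, edgeR), and Eif5a rose by 0.29 (SE 0.0524, adjusted p = 6.41e-05).

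**Figure D4:**
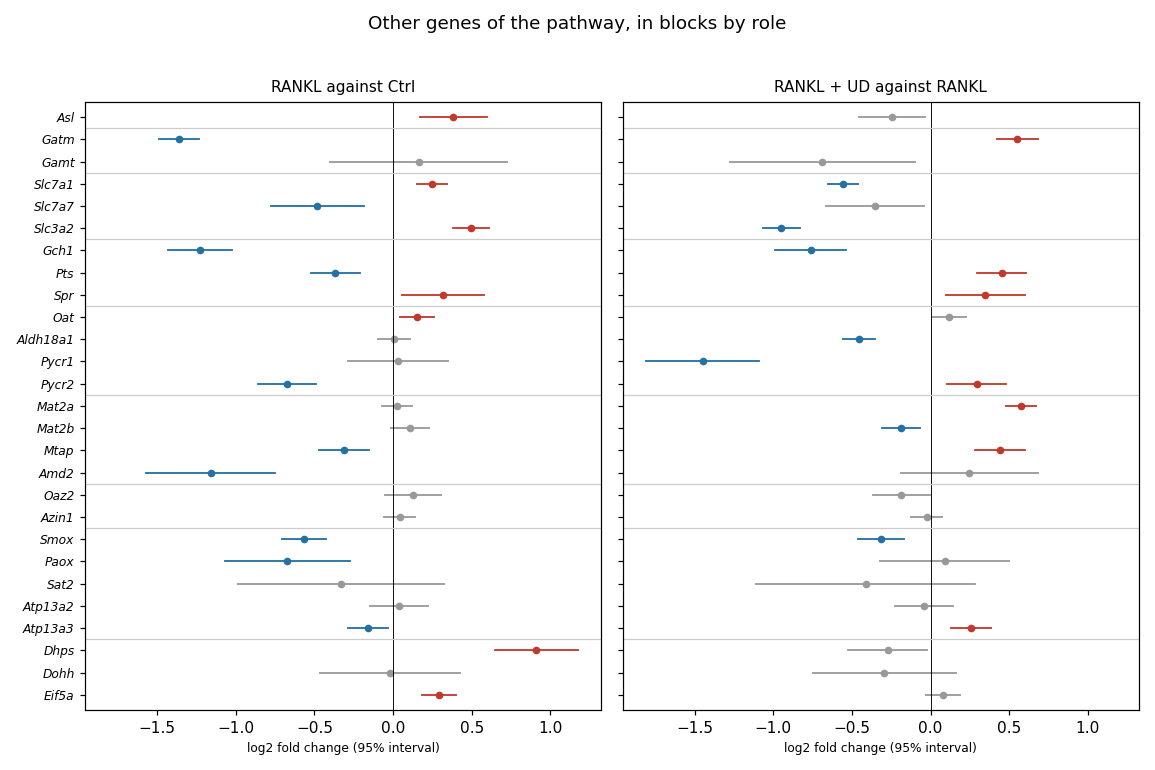
The 27 tested genes around the members (rows, in blocks by role from arginine synthesis at the top to hypusine at the bottom) are drawn with their log2 fold change and 95% interval (x axis, log2 scale) for RANKL against Ctrl on the left and RANKL + UD against RANKL on the right. Red marks genes called higher, blue genes called lower and grey genes not called; Gatm is at -1.36 and 0.55, Gch1 at -1.23 and -0.76, and Slc3a2 at 0.50 and -0.95.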

How the data were processed

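Poly(A) RNA of 9 RAW264.7 libraries was sequenced as paired reads of 150 bases. The authors deposited whole-number counts per gene, not normalized, and beside them FPKM with 2 decimals that they made from these counts, the exonic length and the library total. From the deposited counts and lengths, 100% of FPKM values could be recomputed within 0.0051. The aligner, the counting tool and the annotation release are not given in the sources used here, and the labels' processing notes name mm10. No row without a gene name and no value column without a library was found.

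Each column was matched to its library by name, and each library to its group by its label. Counts were analysed in R 4.3.3 with edgeR 4.0.16: TMM scaling (factors 0.959 to 0.962 for RANKL and 1.01 to 1.03 for the other groups), 1 quasi-likelihood fit over all 9 libraries with group as the only term, genes with at least 1 FPKM in at least 3 libraries (11995), and Benjamini-Hochberg adjustment over all of them. The common dispersion was 0.00401 and the depth was 15951800 to 19746862 counts. The code was tested on data with known answers. The alternatives were DESeq2 1.42.0, its size factors in edgeR, library totals alone, limma 3.58.1 on log2(FPKM + 1) and log2(FPKM + 0.1), no filter on low values, only the 6 libraries compared, a replicate block, leaving out each library, and, added after seeing the data, counts summed with those of near-identical copies. With 3 libraries a group, an exact two-sided test of 1 gene cannot go below p = 0.1, so none is given.

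All 10 members are named. Of the 42 other pathway genes, those with the 3 largest rises and 3 largest falls in each comparison, among those called with no overlap between groups, are named by rule. Slc7a1, Slc7a7, Cd68, Adgre1, Cybb, Smox, Paox, Atp13a3, Oaz2, Azin1, Azin2, Eif5a, Otc and Nags were named after their values were seen. For Ass1, Odc1 and Sat1, the 5 genes of the most similar profile are named, except 1 that is not reported here. The members, gene lists and markers were chosen with earlier results of these data known. Coordinates are those of the deposited table. Of 52073 genes shared with the GENCODE annotation of GRCm38, 1435 had identical coordinates. Promoters came from RefSeq on GRCm38.p6 and transcripts from GENCODE on GRCm38.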

Additional observations from a re-analysis of the deposited data

How the results depend on the processing

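Depth limits the low members: Arg1 gave 6 to 18 counts a group, and intervals for Arg2 and Nos2 were wide, while the shared sequence of Amd1, Sms and Oaz1 with their copies leaves the split of their reads uncertain. The number of members called was within 1.5 times of that reported under every setting but 1: with library totals alone, 5 were called between RANKL + UD and RANKL, 4 higher and 1 lower, in place of 3 (1 higher and 2 lower). The split there also moved in limma with either pseudocount, to 3 higher and 1 lower, and with only the 6 libraries compared, to 2 and 2. That scaling moved the median log2 fold change of all genes by -0.0883 between RANKL and Ctrl and by 0.0864 between RANKL + UD and RANKL, and the share of called genes that were higher from 47.5% to 36.8% and from 48% to 66.2%. Leaving out 1 library gave 6 to 7 members called between RANKL and Ctrl, 3 to 4 between RANKL + UD and RANKL and 7 between RANKL + UD and Ctrl, and 14 to 17, 12 to 16 and 15 to 17 pathway genes. No fitted change of a member that was called turned its direction. Of the members' fold changes under the alternatives, 452 kept their side of the threshold, 10 became called and 9 lost the call, the latter 2 kinds all for Srm, Sat1, Odc1, Oaz1 or Ass1. Srm was not called between RANKL and Ctrl in limma either (0.13, adjusted p = 0.205), nor was Sat1 between RANKL + UD and RANKL (-0.13, adjusted p = 0.184), while limma called Odc1 (0.15, adjusted p = 0.0443) and Srm (0.26, adjusted p = 0.0354) there. On log2(FPKM + 1), which understates the change of low genes, the values of Nos2 and Arg2 between RANKL and Ctrl were 1.19 and 0.73. The cause of these changes was not tested beyond the scaling. Libraries share replicate numbers across groups. The deviations of same-numbered libraries correlated at -0.0252 to 0.0777, and those of differently numbered libraries of different groups at -0.0818 to 0.0414. Any pairing by number was therefore weak, and whether the numbers pair the libraries is not settled here. With the replicate block, 7, 3 and 7 members and 17, 14 and 16 pathway genes were called in the 3 comparisons, as without it.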

Other observations

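Azin2, an antizyme inhibitor that shields ornithine decarboxylase, fell short of the filter on low values and so was not tested above. It read 0.20 to 0.25 FPKM in Ctrl, 0.82 to 0.85 in RANKL and 0.32 to 0.66 in RANKL + UD, and the 3 groups did not overlap. With the filter removed, Azin2 was higher in RANKL than in Ctrl by 1.92 on the log2 scale (SE 0.318, adjusted p = 1.38e-08, edgeR's quasi-likelihood test) and lower in RANKL + UD than in RANKL, at -0.96 (SE 0.291, adjusted p = 0.00727). In that fit 7800 and 4779 genes were called in these comparisons. The values of Azin2 rest on 13 to 66 counts a library, and the gene was picked after they were seen. Azin1, its abundant relative, read 37.21 to 40.89 FPKM over all 9 libraries.

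Profiles over the 9 libraries were compared by Pearson's r of log2 CPM, as a description, since the points share their groups and libraries. For Ass1 the most similar tested genes were Gtpbp6 (r = 0.992), Zfp688 (0.986), Snx33 (0.985), Mcf2l (0.983) and Dgka (0.98). For Sat1 they were Ing4 (r = 0.99), Atg101 (0.986), Rtn4 (0.985), Heca (0.984) and Gabarapl1 (0.979). For Odc1, which was not called between any groups, the values were lower, with Ptbp1 (r = 0.896), Ftl1-ps1 (0.895), Pgm2 (0.891) and Cfl1 (0.89).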
